A study of Mus musculus with 18 samples.

Results

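The genes described here are 30 named genes of the peroxisome, the organelle that shortens very long and branched fatty acids and handles the hydrogen peroxide this produces. They were taken by name from the 22609 gene rows of each count file and not by any measured value. All 30 were found. There were 16 enzymes, 2 fatty acyl transporters of the peroxisomal membrane and 12 Pex genes, whose products build the organelle. 29 carried their own symbol, and Pex2 was listed under the older symbol Pxmp3, a synonym in RefSeq.

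The mice were wild type, of the strain C57BL/6J, and the labels name no altered allele. RNA of whole heart, kidney or liver tissue was sequenced. From an age of 4 weeks the mice received chow, or a ketogenic diet of 90% fat, 9.7% protein and 0.3% carbohydrate, and tissue was taken after 21 days. Each organ had 3 chow and 3 ketogenic libraries, labelled as biological replicates, and whether the 3 organs came from the same mice is not stated in the labels. The comparison asks how the ketogenic diet shifted the RNA of each gene in each organ.

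Peroxisomal beta-oxidation runs in repeated rounds of 4 reactions: an acyl-CoA oxidase (Acox genes) makes a double bond and hydrogen peroxide, a bifunctional enzyme (Ehhadh or Hsd17b4) adds water and oxidises the product, and a thiolase (Acaa1a, Acaa1b or Scp2) releases a shortened chain. Catalase breaks down the peroxide. Pex proteins insert membrane proteins, import enzymes made in the cytosol and control the number of peroxisomes, and in rodent liver many of these genes are known targets of the fatty acid receptor PPARα.

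The 18 libraries held 16135276 to 23835383 counts. In heart, and again in liver, the first and second ketogenic replicates differed by little more than counting noise, with a median chi-square over genes of 0.669 and 0.704 against 0.455 for counting alone and 1.26 to 4.6 in the other 16 pairs of one group. Each of these pairs was summed and counted as 1 sample, so the ketogenic groups have n = 2 in heart and liver and n = 3 in kidney. With so few samples, the diets can separate without overlap by chance. The share of all genes that did so was not counted. Hepatocyte genes summed to 111972 to 121162 CPM (counts scaled to library size) in chow liver and to at most 28.5 in heart, ventricular genes to at least 44131 in heart and proximal tubule genes to at least 29585 in kidney. Chow heart replicate 3 stood apart with a summed atrial marker level of 12781 CPM, and ketogenic kidney replicate 1 was nearer to chow than the other ketogenic kidneys for many of the genes below. These are whole tissues, in which fewer cells of a type and less RNA per cell cannot be told apart.

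In chow animals the liver held most of this RNA. On a scale per exon length, called RPKM (counts divided by exon length and library size), the 30 genes summed to 7899 to 8720 in chow liver, 1475 to 1613 in chow kidney and 722 to 801 in chow heart. The liver had the highest chow mean for 27 of 30 genes. The exceptions were the oxidases Acox3 and Hao2, which were highest in kidney, and Pex10, which was highest in heart at 10.5 ± 0.803 RPKM (SD, n = 3) against 7.49 ± 0.852 in kidney and 3.97 ± 0.0736 in liver. Catalase led the liver at 1897 ± 90.6 RPKM (SD, n = 3), followed by Scp2 at 1449 ± 287 and Phyh at 1299 ± 19.4, and the last 2 overlapped between animals. In heart the highest was Phyh, the enzyme that starts the alpha-oxidation of phytanic acid, at 298 ± 27.5 RPKM (SD, n = 3). Pex genes were lower, with a chow liver sum of 396 to 430 RPKM over 12 genes against 7184 to 7995 over the 16 enzymes.

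**Figure D1:**
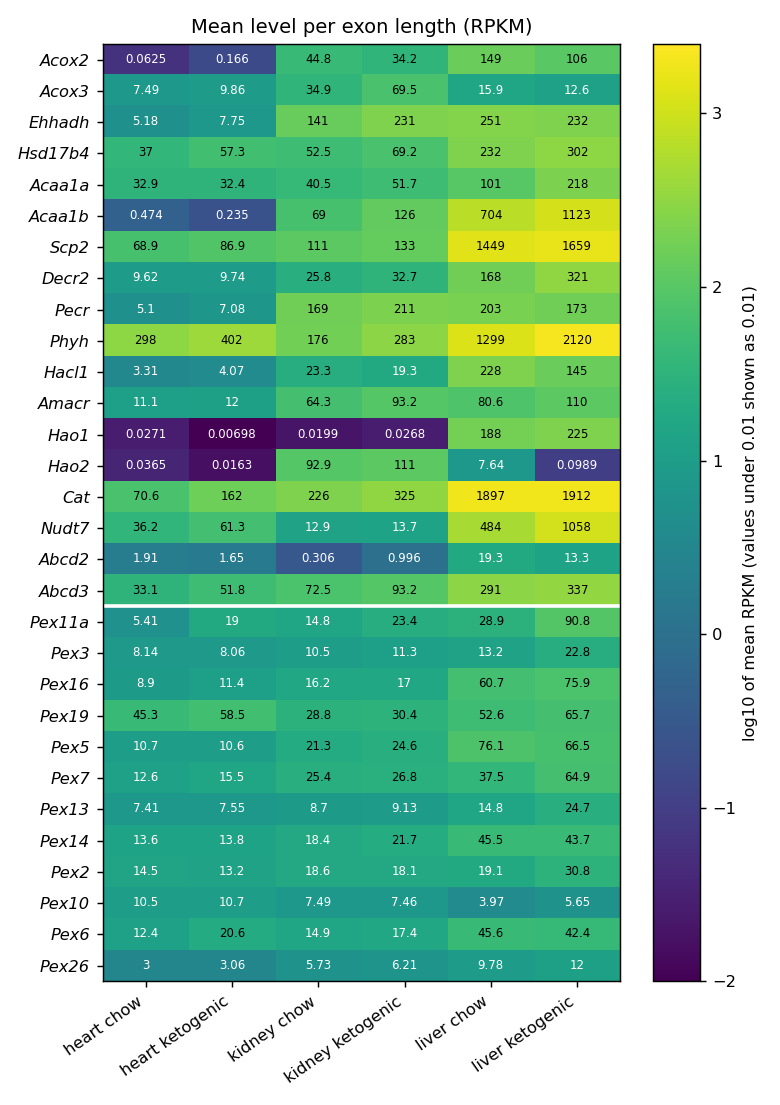
Mean level of each gene (rows; enzymes and transporters above the white line, Pex genes below it) in each organ and diet (columns), in RPKM, with the colour on a log10 scale. Liver columns are brightest for most genes, with Cat at 1897 RPKM in chow liver against 70.6 in chow heart, while Hao1 is near 0 outside liver.

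Some members were called in each organ. Of the enzymes and transporters, 6 of 14 tested rose and 0 fell in heart, where 6.25% of all 13609 genes tested were higher and 5.8% lower. In kidney 5 of 17 rose and 1 fell, beside 3.58% higher and 5.45% lower of 14526 genes. In liver 7 of 18 rose and 5 fell, beside 19.2% higher and 17.5% lower of 13241 genes. Of the 12 Pex genes, all tested in each organ, 2 rose in heart, 1 in kidney and 8 in liver, and none fell (edgeR quasi-likelihood, adjusted p under 0.05). Called Pex genes were thus 16.7% in heart, 8.33% in kidney and 66.7% in liver. Over all genes, 12%, 9.03% and 36.8% were called in either direction, so the kidney share of Pex genes was not above that of all genes. The counts of 0 that fell were also 0 at an unadjusted p under 0.05 and by DESeq2. The median log2 fold change, ketogenic over chow, was 0.38 in heart, 0.34 in kidney and 0.21 in liver for the enzymes and transporters and 0.00, 0.08 and 0.42 for the Pex genes, beside -0.03, 0.00 and 0.01 for all genes tested. Pex11a rose in all 3 organs, 6 genes rose in exactly 2 (Acaa1a, Acaa1b, Cat, Hsd17b4, Nudt7 and Phyh), and Hao1, Pecr, Pex5, Pex14 and Pex26 were called in none. These patterns across organs were not counted over all genes, so no background share stands beside them. The 4 members not tested in heart (Acox2, Acaa1b, Hao1 and Hao2) and Hao1 in kidney were left out for low counts.

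Fewer calls passed in heart and kidney when some single libraries were left out. Without ketogenic heart replicate 3 the summed pair was the one ketogenic heart, so fold changes are compared here in place of calls. Cat was at 1.15 (1.16 with all libraries), Nudt7 at 0.70 (0.73), Hsd17b4 at 0.65 (0.60) and Ehhadh at 0.53 (0.55). Abcd3 was at 0.56 (0.62), Scp2 at 0.27 (0.30) and Pex6 at 0.76 (0.70). Without chow heart replicate 1 or 2, 2 and 3 of 8 member calls were lost. Calls over all heart genes then went from 1639 to 668 and 459. Without chow heart replicate 3, the atrial one, 9 enzymes and transporters and 4 Pex genes rose, beside 13.8% of all genes. In kidney, taking out 1 library at a time removed all 7 calls for chow replicate 1, for chow replicate 3 and for ketogenic replicate 2, 5 calls for chow replicate 2 and 4 calls for ketogenic replicate 3. Calls over all kidney genes went from 1311 to 412, 592 and 565 in the first 3 of these fits, and the fold changes moved little: Acox3 was at 0.98 with all libraries and at 0.94, 0.97 and 0.93 without them, and Acaa1b at 0.85 and then 0.81, 0.81 and 0.79. Without ketogenic kidney replicate 1, 12 enzymes and transporters and 4 Pex genes rose and 2 enzymes fell, beside 11.3% of all genes higher and 11.8% lower. In liver 13 of 20 calls held under each alternative tried, a count that was not made over all genes.

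**Figure D2:**
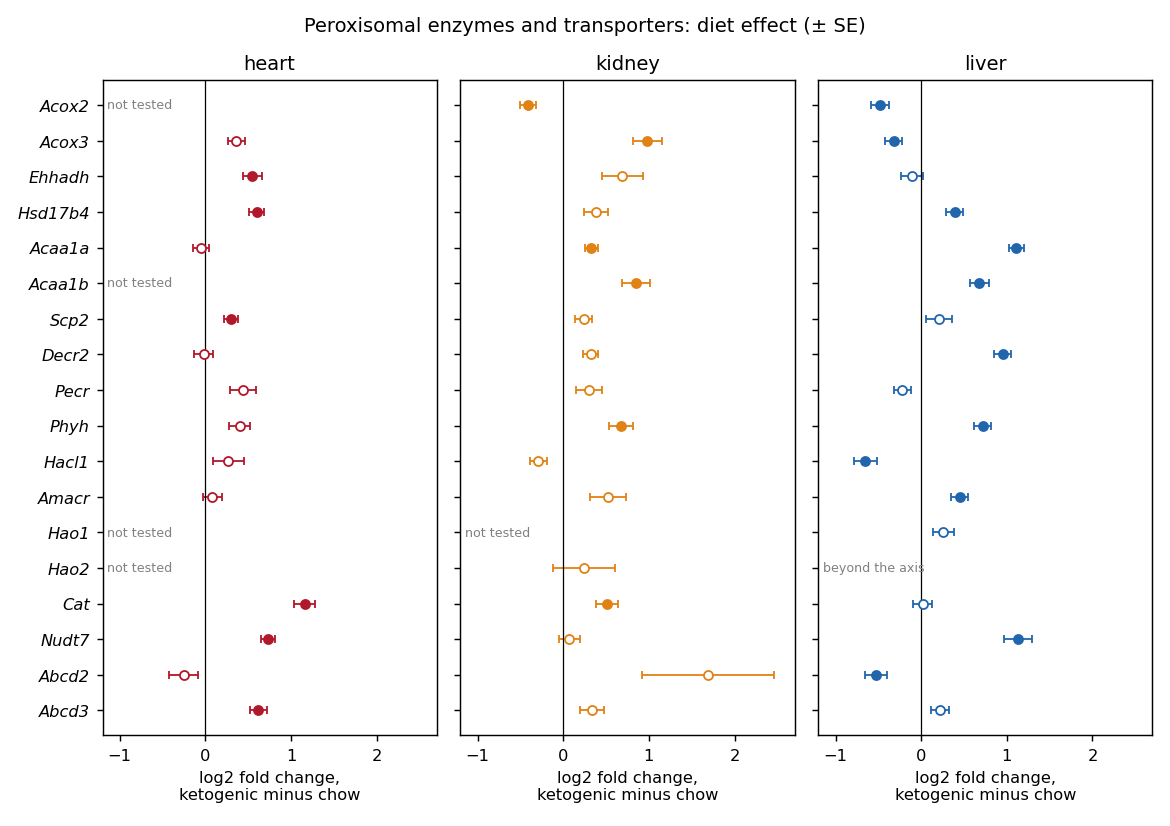
Log2 fold change, ketogenic minus chow, with its standard error (bars) for the 16 enzymes and 2 transporters in heart, kidney and liver. Filled points passed an adjusted p of 0.05. Heart calls all lie to the right of 0, liver calls lie on both sides, and Hao2 in liver, at -6.44, is beyond the axis.

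The thiolases cut the chain at the end of each round, and mice carry a pair of closely related genes for the 3-ketoacyl-CoA form. Acaa1a lies on mm9 at chr9:119250412-119259413 on the plus strand and Acaa1b at chr9:119057161-119066211 on the minus strand. Because reads that fit both copies were counted as fractions, values of this pair are uncertain where reads are shared. Acaa1b was nonetheless at 0.226 to 1.85 CPM in hearts whose Acaa1a was at 54.2 to 61.7. The 250 bases before the RefSeq start of each gene (assembly GRCm38.p6, gene strand, 5′ to 3′) are shown because the copies differed in organ and in their response. Capitals mark the letters AGGTCA, known as a half-site of nuclear receptors such as PPARα, the GC box letters GGGCGG and the box CCAAT, each searched on both strands. None of these letters overlapped another motif.
Acaa1a promoter, chr9:119341044-119341293, plus strand: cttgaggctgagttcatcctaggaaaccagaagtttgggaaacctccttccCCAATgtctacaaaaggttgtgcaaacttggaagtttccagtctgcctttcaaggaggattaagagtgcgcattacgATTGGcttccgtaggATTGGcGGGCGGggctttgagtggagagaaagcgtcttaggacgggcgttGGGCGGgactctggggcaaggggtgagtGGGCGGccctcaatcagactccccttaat
Acaa1b promoter, chr9:119157094-119157343, minus strand: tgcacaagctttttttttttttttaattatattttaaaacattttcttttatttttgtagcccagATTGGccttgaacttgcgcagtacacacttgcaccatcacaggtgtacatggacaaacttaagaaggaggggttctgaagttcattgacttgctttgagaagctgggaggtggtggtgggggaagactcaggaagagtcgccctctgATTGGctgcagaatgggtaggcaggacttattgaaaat
The Acaa1a window held the GC box 3 times and the CCAAT box 3 times, and the Acaa1b window held them 0 and 2 times.

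Acaa1a was 2.16-fold higher in ketogenic liver. Chow livers held 130, 128 and 124 CPM and ketogenic livers 280 (the summed replicates 1 and 2) and 269 (replicate 3), with no overlap. The log2 fold change was 1.11 (SE 0.09; adjusted p = 9.88e-06). In kidney it was at 90.3, 101 and 93.1 CPM on chow and 113, 116 and 128 on the ketogenic diet, a smaller rise of 0.33 (SE 0.08; adjusted p = 0.0352) with no overlap, which did not pass with total-count scaling (0.24, adjusted p = 0.0695). In heart the log2 difference was -0.05 (adjusted p = 0.714). The diet effect on Acaa1a was lower than in liver in both other organs, with log2 differences between organs of -1.12 for heart (adjusted p = 6.4e-05) and -0.75 for kidney (adjusted p = 0.000654).

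Acaa1b, the copy with the higher level in liver, rose in both organs where it was tested. Chow kidneys held 147, 167 and 145 CPM and ketogenic kidneys 206, 298 and 323, a log2 fold change of 0.85 (SE 0.16; adjusted p = 0.0175). Chow livers held 826, 861 and 823 CPM against 1424 and 1263, a change of 0.68 (SE 0.11; adjusted p = 0.00062). Both calls were lost when all 6 groups shared 1 model (adjusted p = 0.0866 in kidney and 0.128 in liver). Per exon length, Acaa1b stood at 6.71 to 7.1 times Acaa1a in chow livers and at 4.94 and 5.37 times in ketogenic livers. In kidney the same ratio was 1.64 to 1.75 on chow and 1.92 to 2.7 on the ketogenic diet, so the balance of the copies moved in opposite directions in the 2 organs. This ratio was not tested.

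Of the bifunctional enzymes, Hsd17b4, which serves branched and very long chains and bile acid precursors, rose in heart and liver. Chow hearts held 103, 107 and 91.5 CPM and ketogenic hearts 158 (summed pair) and 147, a log2 fold change of 0.60 (SE 0.09; adjusted p = 0.011). In liver the change was 0.39 (SE 0.10; adjusted p = 0.0106), from 443 ± 22.3 CPM (SD, n = 3) to 582 ± 9.37 (SD, n = 2). Ehhadh, which serves straight chains and dicarboxylic acids, rose in heart from 15.3, 14.8 and 17.2 CPM to 22.7 and 23.5, a log2 fold change of 0.55 (SE 0.11; adjusted p = 0.0236). It did not pass with total-count scaling (0.41, adjusted p = 0.0679) or with all groups in 1 model (adjusted p = 0.0953). Liver Ehhadh did not pass, at 492, 583 and 540 CPM on chow and 565 and 434 on the ketogenic diet, so that one ketogenic value lay within the chow range and one below it. Kidney Ehhadh was at 623, 517 and 550 CPM on chow and 573, 1113 and 1047 on the ketogenic diet. Ketogenic replicates 2 and 3 were far above all chow kidneys and replicate 1 was among them. The log2 difference of 0.69 did not pass by edgeR (SE 0.24; adjusted p = 0.116). It passed by DESeq2 (adjusted p = 0.00789) and by edgeR with all groups in 1 model (adjusted p = 0.0326). Taking out replicate 1, the ketogenic value nearest to chow, could only widen the difference, to 0.94 (SE 0.10; adjusted p = 5.97e-05). Calls over all kidney genes then went from 1311 to 3400.

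The remaining thiolase Scp2 encodes both a thiolase for branched chains and a sterol carrier protein. Chow hearts held 180, 181 and 184 CPM and ketogenic hearts 219 and 230, a rise of 0.30 (SE 0.08) that only just passed (adjusted p = 0.0497) and was lost under several alternatives. Liver Scp2, at 3293, 2312 and 2464 CPM on chow and 3160 and 3048 on the ketogenic diet, overlapped, with chow replicate 1 the highest of all. Each library was left out in turn, and only without that one was liver Scp2 called (0.38, adjusted p = 0.0142). Calls over all liver genes then went from 4867 to 4231. Kidney Scp2 was at 371 to 409 CPM on chow and 413 to 488 on the ketogenic diet, without overlap, and did not pass (0.24, SE 0.10; adjusted p = 0.157). Decr2 and Pecr are reductases that deal with double bonds. Decr2 rose in liver from 227, 257 and 252 CPM to 486 and 459, a log2 fold change of 0.95 (SE 0.10; adjusted p = 5.29e-05), while hearts of both diets held 18.2 to 21.5 CPM. Kidney Decr2 was at 65.6, 73.6 and 71.9 CPM on chow and 79.1, 93 and 92.2 on the ketogenic diet, without overlap. Its log2 difference of 0.32 (SE 0.09) did not pass by edgeR (adjusted p = 0.0521) and passed by DESeq2 (adjusted p = 0.0209), with RLE scaling (0.0487), with no low-count filter (0.0477) and with all groups in 1 model (0.0322). Pecr was called in no organ, with log2 differences of 0.44 in heart, 0.30 in kidney and -0.22 in liver, but its diet effect in liver was lower than in heart by 0.69 and than in kidney by 0.55 (adjusted p = 0.027 and 0.043).

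The oxidases and helper enzymes for branched chains moved in both directions. Acox3, an oxidase of branched chains, was the one member that rose in one organ and fell in another. In kidney it went from 174, 195 and 181 CPM to 264, 383 and 436, a log2 fold change of 0.98 (SE 0.17; adjusted p = 0.0132). In liver it went from 47.1, 43 and 44 CPM to 37.5 and 34, a change of -0.32 (SE 0.10; adjusted p = 0.0273) that did not pass when the third ketogenic library, or the first or the third chow library, was taken out, or with all groups in 1 model (adjusted p = 0.134). Neither organ showed overlap, and the kidney effect was larger than that in liver by 1.33 (SE 0.21; adjusted p = 0.000673). Heart Acox3 was at 27.2 to 32.6 CPM on chow and 37.3 to 39.9 on the ketogenic diet, also without overlap. Its log2 difference of 0.36 (SE 0.10) did not pass by edgeR (adjusted p = 0.0582) and passed by DESeq2 (adjusted p = 0.0429). Acox2, the oxidase of bile acid precursors, fell in both organs with measurable levels. Chow kidneys held 147, 170 and 151 CPM against 116, 109 and 129, a change of -0.41 (SE 0.09; adjusted p = 0.0285), and chow livers 279, 287 and 268 against 181 and 219, a change of -0.48 (SE 0.11; adjusted p = 0.00592).

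Alpha-oxidation, which removes 1 carbon from phytanic acid so that beta-oxidation can follow, showed its first and second enzymes going opposite ways in liver. Phyh, the hydroxylase, rose from 1378, 1344 and 1368 CPM to 2279 and 2206, a log2 fold change of 0.72 (SE 0.10; adjusted p = 0.000372). Hacl1, the lyase that acts next, fell from 447, 386 and 444 CPM to 311 and 230, a change of -0.65 (SE 0.14; adjusted p = 0.00394). Neither gene overlapped between the diets in liver. Kidney Phyh rose by 0.67 (SE 0.14; adjusted p = 0.0223), from 342, 349 and 344 CPM to 424, 620 and 598. Heart Phyh was at 401 to 479 CPM on chow and 544 to 630 on the ketogenic diet, without overlap. Its log2 difference of 0.40 (SE 0.12) did not pass by edgeR (adjusted p = 0.0719) and passed by DESeq2 (adjusted p = 0.00907). No organ difference passed for Phyh. Kidney Hacl1 had a log2 difference of -0.29 (adjusted p = 0.114). Without ketogenic replicate 1, the ketogenic kidney nearest to chow for this gene, it was -0.40 (adjusted p = 0.0065). Calls over all kidney genes then went from 1311 to 3400. Amacr, the racemase that lets branched chains enter beta-oxidation, rose in liver from 148 ± 7.15 CPM (SD, n = 3) to 203 ± 20.2 (SD, n = 2), a log2 fold change of 0.45 (SE 0.10; adjusted p = 0.00495; adjusted p = 0.0818 with all groups in 1 model).

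Catalase, which removes hydrogen peroxide, was 2.24-fold higher in ketogenic hearts and did not change detectably in liver. Chow hearts held 181, 206 and 161 CPM and ketogenic hearts 403 (summed pair) and 415. The log2 fold change in heart was 1.16 (SE 0.12; adjusted p = 0.00271), with every ketogenic heart far above every chow heart. Kidneys held 777, 811 and 705 CPM on chow and 909, 1189 and 1160 on the ketogenic diet, a rise of 0.51 (SE 0.13; adjusted p = 0.0431). Livers held 3610, 3443 and 3287 CPM on chow and 3431 and 3575 on the ketogenic diet, overlapping, with a log2 difference of 0.02 (SE 0.11; adjusted p = 0.892). The effect in heart exceeded that in liver by 1.18 (SE 0.22; adjusted p = 0.0016). Per exon length, ketogenic hearts at 162 RPKM stayed below chow kidneys at 226 and chow livers at 1897. The 250 bases before the Cat start are shown because Cat was 1 of 2 members with AGGTCA in this window; they also held 1 GC box and the CCAAT box 4 times.
Cat promoter, chr2:103485154-103485403, minus strand: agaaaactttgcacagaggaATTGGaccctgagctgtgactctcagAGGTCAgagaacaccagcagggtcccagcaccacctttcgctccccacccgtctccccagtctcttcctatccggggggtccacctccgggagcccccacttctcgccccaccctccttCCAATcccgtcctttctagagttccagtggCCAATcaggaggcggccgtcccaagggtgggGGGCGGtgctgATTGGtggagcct
Its gene spans chr2:103294061-103325310 on mm9, minus strand.

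Nudt7, a hydrolase that splits coenzyme A and its esters inside the peroxisome, rose in heart and liver. Chow hearts held 41.1, 38.2 and 40.4 CPM and ketogenic hearts 64.6 and 67.3, a log2 fold change of 0.73 (SE 0.08; adjusted p = 0.00326). Chow livers held 448, 318 and 359 CPM and ketogenic livers 925 and 721, a change of 1.13 (SE 0.16; adjusted p = 0.00055). The diets did not overlap in either organ. Kidneys stayed between 15.6 and 21.3 CPM on both diets, a log2 difference of 0.07 (adjusted p = 0.746), and the effect there was smaller than in liver by 1.03 (SE 0.21; adjusted p = 0.00282).

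The 2-hydroxy acid oxidases make hydrogen peroxide from glycolate (Hao1) and longer hydroxy acids (Hao2). Hao1 was a liver gene, at 305, 264 and 247 CPM on chow and 357 and 297 on the ketogenic diet, and did not pass (0.26, adjusted p = 0.113). Hao2 was low in chow liver, at 13.4, 15 and 5.01 CPM, and close to 0 in ketogenic liver, at 0.0769 (summed pair) and 0.216. The 3 ketogenic libraries held 7 counts and the 3 chow libraries 763, a chow over ketogenic ratio of 91.4 with a 95% exact interval of 44.1 to 228 that covers counting error only. The fitted log2 fold change was -6.44 (SE 0.96; adjusted p = 0.00908), and the adjusted p was 0.0504 without ketogenic replicate 3. Kidney Hao2 was far higher, at 227, 261 and 269 CPM on chow. Ketogenic kidneys were spread around these values at 464, 258 and 173 CPM, replicate 1 above all chow kidneys and replicate 3 below them, and the difference did not pass (0.24, SE 0.36; adjusted p = 0.716). The kidney and liver effects differed (6.72, SE 1.03; adjusted p = 0.00101).

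Both transporters belong to the ABC family that carries fatty acyl-CoA into the peroxisome. Abcd3, which takes branched chains, bile acid precursors and dicarboxylic acids, rose in heart from 122, 118 and 102 CPM to 167 and 182, a log2 fold change of 0.62 (SE 0.10; adjusted p = 0.0131). It did not pass in kidney (0.34, adjusted p = 0.157) or in liver (0.22, adjusted p = 0.118). Chow livers held 674 to 738 CPM and ketogenic livers 808 to 836, without overlap. Abcd2, which takes very long and polyunsaturated chains, fell in liver from 63.5, 81.5 and 83.3 CPM to 56.8 and 48.4, a change of -0.53 (SE 0.13; adjusted p = 0.0104) that was lost without ketogenic replicate 3 (adjusted p = 0.0909) and with all groups in 1 model (adjusted p = 0.423). Kidney Abcd2 was at 1.69, 2.99 and 2.06 CPM on chow and 5.52, 1.7 and 14.4 on the ketogenic diet, and did not pass (adjusted p = 0.228). Those 3 ketogenic kidneys had the same order for the adipocyte marker Plin1, picked after its values were seen, at 30, 3.53 and 58.7 CPM. The summed adipocyte list was at 53.5 to 159 CPM in chow kidneys and 59.7 to 414 in ketogenic kidneys, with 0 of 7 tested genes called by edgeR (1 at an unadjusted p under 0.05, 0 by DESeq2), and its part in the Abcd2 values was not tested.

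**Figure D3:**
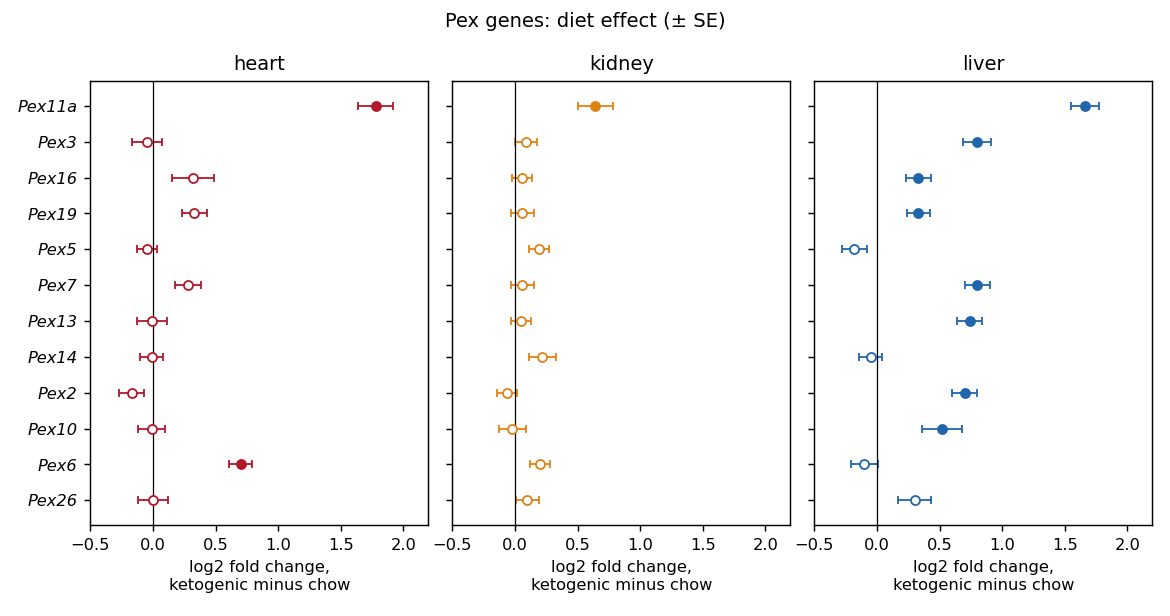
Log2 fold change, ketogenic minus chow, with its standard error (bars) for the 12 Pex genes, grouped by role from top to bottom. Filled points passed an adjusted p of 0.05. Pex11a is filled in all 3 organs at 1.78, 0.64 and 1.66, Pex6 is filled in heart only, and the other rises are in liver.

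Pex11a, which elongates the membrane before peroxisomes divide, had the largest rise of the members tested in heart and in liver. Chow hearts held 5.23, 4.69 and 4.53 CPM and ketogenic hearts 17.2 (summed pair) and 15.9, a 3.44-fold difference. Livers went from 19.2, 17 and 18 CPM to 62.7 and 51.7, a 3.17-fold difference, and kidneys from 17.6, 17.7 and 16.6 CPM to 21.1, 29.6 and 30.2, a 1.56-fold difference. No organ showed overlap, and the ketogenic kidney nearest to chow was replicate 1. The log2 fold changes were 1.78 (SE 0.14; adjusted p = 0.00156) in heart, 1.66 (SE 0.11; adjusted p = 3.91e-06) in liver and 0.64 (SE 0.14; adjusted p = 0.0223) in kidney. The kidney call was lost without any 1 library other than ketogenic replicate 1 (adjusted p = 0.067 to 0.0994). It was also lost with the replicate number as a block (adjusted p = 0.0509). The kidney effect was smaller than that in heart by 1.16 (adjusted p = 0.0074) and than that in liver by 0.99 (adjusted p = 0.00204), while heart and liver differed by 0.16 (SE 0.21; adjusted p = 0.624). Pex11a was the only member whose diet effect differed between heart and kidney, where 2.47% of 15696 genes did. Its gene spans chr7:86882150-86887911 on mm9, minus strand. The window before its RefSeq start is shown because Pex11a was the one member that rose in all 3 organs, and it held none of the 3 motifs.
Pex11a promoter, chr7:79743132-79743381, minus strand: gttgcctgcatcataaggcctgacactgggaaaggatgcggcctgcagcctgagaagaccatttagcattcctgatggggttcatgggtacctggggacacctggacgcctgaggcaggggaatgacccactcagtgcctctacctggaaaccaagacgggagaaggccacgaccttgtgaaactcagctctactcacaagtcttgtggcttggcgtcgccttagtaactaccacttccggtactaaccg
No match says only that these letters are not in this window.

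The genes that place proteins in the peroxisomal membrane rose in liver and were not called elsewhere. Pex3, the membrane anchor for the chaperone Pex19, went from 23.5, 23.5 and 21.1 CPM to 41.9 and 36.8 in liver, a log2 fold change of 0.80 (SE 0.11; adjusted p = 0.000219). Pex19 rose by 0.33 (SE 0.09; adjusted p = 0.0143), from 117 ± 3.2 CPM (SD, n = 3) to 148 ± 3.62 (SD, n = 2), and Pex16, which helps to recruit Pex3, by 0.33 (SE 0.10; adjusted p = 0.0203). Pex16 no longer passed when the third ketogenic library, or the second or the third chow library, was taken out, or with all groups in 1 model (adjusted p = 0.0512). In heart, Pex16 and Pex19 had log2 differences of 0.32 and 0.33 that did not pass (adjusted p = 0.255 and 0.071). Heart Pex19 passed by DESeq2 (adjusted p = 0.0259), and by edgeR with separate pair libraries (0.0259) and with all groups in 1 model (0.0208). Both genes passed in heart without chow replicate 3 (adjusted p = 0.012 for Pex16 and 0.0197 for Pex19). Calls over all heart genes then went from 1639 to 3743. For Pex3 the heart effect minus the liver effect was -0.81 (adjusted p = 0.00201), and kidney minus liver was -0.68 (adjusted p = 0.00463). For Pex16 and Pex19 no organ difference passed.

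Of the receptors that fetch enzymes from the cytosol, Pex7 rose in liver and Pex5 did not. Pex7 recognises the amino-terminal signal carried by thiolase and by Phyh, and Pex5 the carboxy-terminal signal carried by most other peroxisomal enzymes. Liver Pex7 went from 54.4, 47.4 and 49.9 CPM to 90.4 and 86, with no overlap and a log2 fold change of 0.80 (SE 0.10; adjusted p = 0.00012). Liver Pex5 was at 190, 165 and 163 CPM on chow and 146 and 158 on the ketogenic diet, a log2 difference of -0.18 (SE 0.10; adjusted p = 0.197). The kidney effect on Pex5 was above that in liver by 0.41 (adjusted p = 0.0355), and the kidney effect on Pex7 was below it by 0.72 (adjusted p = 0.00124). Pex13 and Pex14 form the docking site for these receptors. Pex13 rose in liver from 47.1, 39.6 and 43.9 CPM to 74.7 and 71.2, a log2 fold change of 0.74 (SE 0.10; adjusted p = 0.000251). Pex14 did not pass there, at -0.05 (SE 0.09; adjusted p = 0.735).

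The RING-type ubiquitin ligases Pex2 and Pex10, which mark the import receptor so that it can be recycled, rose in liver. Pex2 went from 30.2, 31.2 and 31.2 CPM to 53.4 and 46.8, a log2 fold change of 0.70 (SE 0.10; adjusted p = 0.000311). Pex10 went from 4.71, 4.7 and 4.56 CPM to 7.08 and 6.3, a change of 0.52 (SE 0.16; adjusted p = 0.0282) that was lost without any 1 of chow replicates 1, 2 and 3 or ketogenic replicate 3. Neither gene overlapped between the diets. Pex6, an ATPase that pulls the receptor back out of the membrane, and Pex26, its membrane anchor, did not pass in liver, at -0.10 and 0.30 (adjusted p = 0.535 and 0.0997). Pex6 rose in heart, from 37.9, 42.4 and 39.9 CPM to 67.8 and 62.4, with no overlap and a log2 fold change of 0.70 (SE 0.09; adjusted p = 0.00519). Its effect in heart exceeded that in liver by 0.84 (SE 0.14; adjusted p = 0.000694). Kidney Pex genes other than Pex11a had log2 differences between -0.06 and 0.22, none of them called.

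**Figure D4:**
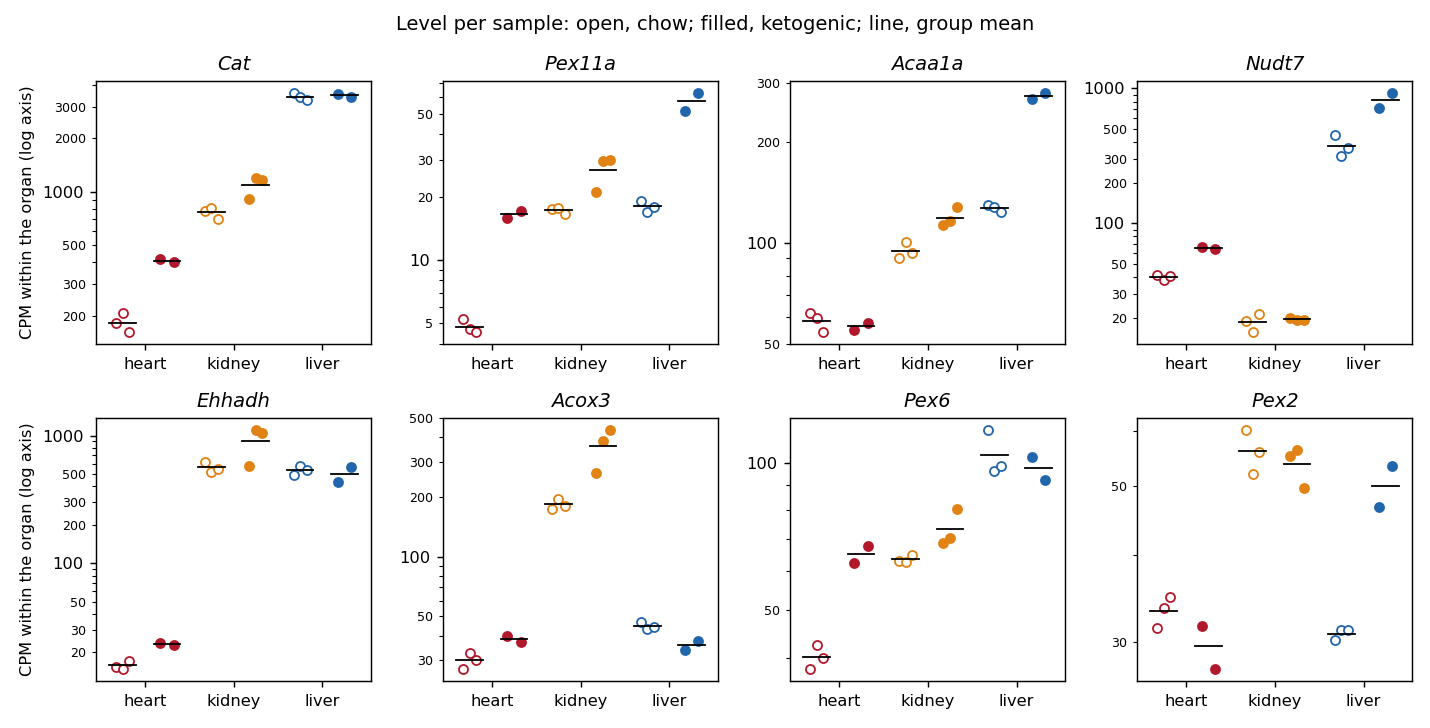
CPM of 8 genes in every sample (log axis): open points are chow, filled points ketogenic, and lines are group means. Cat is higher in ketogenic heart and kidney and level in liver, Pex11a is higher in all 3 organs, Acaa1a rises most in liver, and 1 ketogenic kidney lies among the chow kidneys for Ehhadh.

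More members differed in their diet effect between liver and another organ than between heart and kidney. Of the 30 members, 12 (40%) differed between heart and liver, where 23.5% of 15696 genes did, 14 (46.7%) between kidney and liver, beside 21.8%, and 1 (3.33%) between heart and kidney, beside 2.47%. Pex2, Pex3, Pex7 and Pex13 had a higher effect in liver than in either other organ, and Pex10 than in kidney. Cat, Hacl1, Acox3, Pecr and Pex6 had a higher effect in heart than in liver, and Acaa1a and Decr2 a lower one.

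Promoter windows of 250 bases were found in the RefSeq table for 25 of the 30 genes. AGGTCA on either strand was in 8% of them (2 of 25, Cat and Scp2) and in 15.8% of 27025 genes in the table. GGGCGG was in 60% (15 of 25) against 35.4%, and CCAAT in 40% (10 of 25) against 37.5%. No member window held AGGNCA followed after 1 base by a second copy, which 0.4% of all genes held. A gene with several starts counted if any window had the motif, and these matches describe letters, not binding.

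Some marker lists of cell types and liver zones differed between the diets in these samples, and others had no gene called or moved both ways. The part of marker genes in the results above was not tested. Over all genes, 36.8% were called in liver, 12% in heart and 9.03% in kidney. In liver, 4 of 6 hepatocyte genes fell, with a summed level of 111972 to 121162 CPM on chow and 69503 to 74670 on the ketogenic diet. Pericentral genes summed to 6389 to 6532 CPM on chow and 11590 to 11661 on the ketogenic diet (2 of 4 rose, 1 fell), and periportal genes to 2491 to 2532 and 1355 to 1725 CPM (3 of 4 fell). Adipocyte genes summed to 4.53 to 6.38 and 90.7 to 148 CPM in liver, through Cfd and Cidec, while the defining markers Adipoq and Plin1 had at most 2 counts in any liver sample. In heart, 6 of 7 macrophage genes fell (481 to 544 CPM on chow, 293 to 298 ketogenic), and ventricular genes summed to 44131 to 51460 and 53974 to 56505 CPM with 0 of 5 called by edgeR (1 at an unadjusted p under 0.05, 1 by DESeq2). In kidney the proximal tubule list, the segment richest in peroxisomes, summed to 29585 to 32306 CPM on chow and 33144 to 47604 on the ketogenic diet, with 1 gene higher and 2 lower of 14. Distal nephron genes summed to 7033 to 8187 CPM on chow and 4808 to 7496 on the ketogenic diet (1 of 9 fell), podocyte genes to 410 to 523 and 325 to 397 (1 of 3 fell), and the cholangiocyte list, part of which kidney also expresses, to 1261 to 1323 and 448 to 1070. Heart erythroid genes summed to 4577 to 6566 CPM on chow and 1116 to 2595 on the ketogenic diet. For the cholangiocyte and erythroid lists edgeR called 0 genes, with 3 of 5 and 5 of 7 at an unadjusted p under 0.05, and DESeq2 called 1 and 5.

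A wider list held 55 other peroxisomal genes. In heart 12 of 46 tested rose and 1 fell, in kidney 12 of 51 rose and 2 fell, and in liver 24 of 51 rose and 5 fell. Over all genes 6.25% were higher and 5.8% lower in heart, 3.58% and 5.45% in kidney, and 19.2% and 17.5% in liver. The list's median log2 fold changes were 0.14, 0.19 and 0.27. The 3 heart rises with the lowest p were Ech1, a dienoyl-CoA isomerase, at 1.66 (adjusted p = 0.00175), the carbonyl reductase Dhrs4 at 0.96 (adjusted p = 0.00175) and the epoxide hydrolase Ephx2 at 1.64 (adjusted p = 0.00186), and Nudt19, another coenzyme A hydrolase, fell by 0.36 (adjusted p = 0.0363). Kidney rises were led by the acyltransferase Acnat2 (0.83), the acyl-CoA synthetase Slc27a2 (0.84) and the enoyl-CoA isomerase Eci2 (0.52), with adjusted p of 0.00237, 0.00802 and 0.00866. Kidney Baat, which conjugates bile acids, and Mpv17l fell by 0.99 and 0.49 (adjusted p = 0.0428 and 0.0441). In liver the acyl-CoA thioesterases Acot3 (2.07, adjusted p = 5.58e-06) and Acot4 (1.27, adjusted p = 9.3e-06), neighbours in a family whose reads can be shared, rose with Eci2 (0.99, adjusted p = 3.93e-05). Acnat2, which rose in kidney, fell in liver from 31.4 ± 3.7 CPM (SD, n = 3) to 6.13 ± 3.02 (SD, n = 2), a change of -2.43 (SE 0.32; adjusted p = 0.00303), and Acnat1 and Pxmp4 fell there by 0.88 and 0.76 (adjusted p = 0.000301 and 0.0104). The calls of Nudt19, Baat, Mpv17l and Pxmp4 were lost when certain single libraries were left out, as were those of Slc27a2 and Eci2 in kidney. With all groups in 1 model, Nudt19 and Slc27a2 did not pass.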

How the data were processed

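Messenger RNA was sequenced from stranded libraries with an RNA integrity number above 4, per the labels' protocols. Per the submitters' processing notes, HISAT2 2.1.0, SAMtools, bcl2fastq and featureCounts 1.5.0 were used. The deposited values are estimated counts per gene: per the file headers, featureCounts counted read pairs by strand on exons of the mm9 UCSC annotation, with multi-mapping and overlapping reads as fractions. Exon lengths are those of the deposited files.

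Estimated counts were rounded to whole numbers, which changed a library's total by at most 0.00441%. For each organ, genes kept by filterByExpr were scaled by TMM and tested with edgeR 4.0.16 (robust quasi-likelihood test, R 4.3.3), with Benjamini-Hochberg adjustment over all genes tested and a threshold of 0.05. All adjusted p-values are from this test unless another is named. The standard error is the log2 fold change divided by the square root of F. CPM uses the effective library size within the organ and RPKM that over all 6 groups. Organ differences are contrasts in 1 model of 6 groups. The first 2 ketogenic replicates, in heart and in liver, were summed because their median chi-square was under 1. Steps were tested on simulated data.

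All 30 members are named, and from the other peroxisomal genes up to 3 rises and 3 falls per organ with the smallest adjusted p. The members, lists and tests were chosen with earlier results of these data known. Promoter windows come from RefSeq (GRCm38.p6), and gene positions from the files (mm9). Alternatives were DESeq2 1.42.0, RLE and total-count scaling, 2 other low-count filters, separate pair libraries, 1 model of all groups, a replicate block and leaving out each library. Same-numbered chow and ketogenic libraries did not deviate together (r from -0.141 to 0.106), so the numbers were not used as pairs.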

Additional observations from a re-analysis of the deposited data

Results flagged for a closer look

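Each value here is the log2 fold change on the ketogenic diet in one organ minus that in another, and each was picked out because edgeR's test of that difference passed (adjusted p under 0.05 over 15696 genes). Between heart and kidney, Pex11a differed by 1.16.

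Between heart and liver, the effect was higher in heart for Acox2 (1.75), Cat (1.18), Hacl1 (0.96), Pex6 (0.84), Acox3 (0.73) and Pecr (0.69). Heart Acox2 was below 1 CPM in each sample, so this fitted value rests on few counts. The effect was higher in liver for Acaa1a (-1.12), Decr2 (-0.92), Pex2 (-0.83), Pex3 (-0.81), Pex13 (-0.71) and Pex7 (-0.48).

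Between kidney and liver, the effect was higher in kidney for Hao2 (6.72), Abcd2 (2.27), Acox3 (1.33), Pecr (0.55) and Pex5 (0.41), and higher in liver for Nudt7 (-1.03), Pex11a (-0.99), Acaa1a (-0.75), Pex2 (-0.73), Pex7 (-0.72), Pex3 (-0.68), Pex13 (-0.66), Decr2 (-0.59) and Pex10 (-0.51). Kidney Abcd2 was spread from 1.7 to 14.4 CPM among the ketogenic samples.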

How the results depend on the processing

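No member changed sign with its call under the alternatives run. In kidney, 5 enzymes and transporters rose by the edgeR test and 8 by DESeq2, beside 520 and 865 of all 14526 genes tested. With the replicate number as a block, which the samples gave no ground for, 3 rose, 0 fell (1 before) and 0 Pex genes rose (1 before) in kidney, and 2 members differed between heart and kidney (1 before). Heart Pex rises went from 2 to 4 with the pair as separate libraries or with all groups in 1 model, liver enzyme and transporter falls from 5 to 3 in 1 model, and members differing between heart and kidney from 1 to 2 with total-count scaling and 5 with separate pairs. Over all genes, heart rises went from 850 to 1676 with separate libraries and 1319 in 1 model. Liver falls went from 2323 to 2458 in 1 model. For heart against kidney the all-gene share under those settings is not given.

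Leaving out 1 library gave, for enzymes and transporters that rose, 0 to 9 in heart, 0 to 12 in kidney and 7 to 9 in liver; for those that fell, 0 to 2 in kidney and 2 to 5 in liver; for Pex genes that rose, 1 to 4, 0 to 4 and 6 to 8; and 1 to 3 members differing between heart and kidney, 8 to 14 between heart and liver and 10 to 16 between kidney and liver. A lone remaining ketogenic sample is assumed to vary like the chow group. The lows of 0 and 1 rises in heart and of 2 falls in liver came from such fits. The share of all genes that was higher was 1.89 to 13.8% in the other heart fits. It was 0.96 to 11.3% in kidney and 15.9 to 18.8% in liver, and 1.85 to 11.8% and 14.4 to 17.4% were lower there. For the organ differences this share is not given.

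Total-count scaling shifted the median of all heart genes from -0.03 to -0.17 and the share of calls that were higher from 51.9 to 24.4% in heart and from 39.7 to 25.3% in kidney. Over all genes, calls in heart went from 1639 to 3319 with separate pairs and 2730 with the block, and in kidney from 1311 to 812 with the block. Low counts limit Hao1, Hao2, Acox2 and Acaa1b in heart and Hao1 in kidney.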
